A study of Oryza sativa with 36 samples.

Results

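The comparison described here sets the flag leaves of the rice lines CHT025 and WFB, the parents of the hybrid WFYT025, side by side on day 10 after flowering in the crop grown as early rice. The members were the libraries that the labels assign to this line, day and season, 3 of CHT025 and 3 of WFB, or 6 of the 36 libraries of the series. All other libraries come from the same parents and the hybrid on day 1 or day 10, in an early or a middle rice crop, again with 3 per group. The labels name no transgene, mutation or treatment in any group, and whether replicates were separate plants is not said. The p-values therefore speak only of how far these libraries vary, and part of that variation may be technical. Expression is given as FPKM, fragments per kilobase of transcript scaled to the mapped fragments of the library, and a difference is CHT025 minus WFB on the scale of log2(FPKM + 1). A ± after a log2 difference is its standard error, from a fit over all 36 libraries. A ± after a mean in FPKM is the SD of the 3 libraries of the group. Loci are named by the identifiers of the deposited tables, in which the digits after Os give the chromosome.

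The flag leaf is the uppermost leaf of the rice plant and the main supplier of sugar to the filling grain. During grain filling it fixes carbon, loads sucrose into the phloem, and later dismantles its photosynthetic proteins and exports their nitrogen as glutamine. Inbred rice lines differ in which members of large gene families they carry or express, above all in immune receptors, and such differences pass to a hybrid together with differences in how strongly shared genes are expressed.

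The 6 libraries had FPKM sums of 536065 to 563721 and 21656 to 23047 genes above 0, and Pearson's r of log2(FPKM + 1) across genes was 0.991 to 0.995 within a parent and 0.916 to 0.92 between the parents. All 5 leaf markers were expressed in every library, the weakest at 606 FPKM or more. The other 5 floral organ MADS genes summed to at most 0.58 FPKM, and the root marker RCc3 was listed at 0. OsMADS1 (LOC_Os03g11614) was the exception among them, with 1.49, 1.57 and 1.47 FPKM in WFB and 5.56, 6.69 and 5.73 in CHT025 (log2 1.47 ± 0.13, limma adjusted p = 2.32e-11). Transcripts of seed storage proteins, the glutelins and prolamins of the grain, were unevenly present. Their 43 genes summed to 12.9, 14.1 and 414 FPKM in WFB replicates 1 to 3 and to 175, 4.62 and 4.8 FPKM in CHT025. So 1 library of each parent stood apart, and over the series 24 of the 36 libraries had a sum above 50 FPKM. Of the 28 seed storage genes tested, limma called 0 between the parents and 0 had an unadjusted p under 0.05. Counts over the gene lists were also taken without both of those libraries. The parent with more called genes stayed the same in every list that had one, except the NAC factors, which went from 22 and 19 to 21 and 21.

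The libraries labelled WFB, day 1, early season, stood apart from all other WFB libraries. At least 5 FPKM in all 3 of them and at most 0.3 FPKM in the other 9 WFB libraries was found for 53 genes, against 0 to 16 such genes for the other 11 groups within their own line. Of the 53, 30 were also at or under 0.3 FPKM in every CHT025 and WFYT025 library, and 9 were at 5 FPKM or more in all 12 CHT025 libraries. The group of the same line described here, WFB on day 10 of the early season, had 0 such genes. Whether these 3 libraries are of the line that their label gives was not tested, so their values below are given as those of the libraries labelled WFB, day 1. Every statement below on day 1 of the early season, and on the change of the parental difference between the days, rests on them. Middle-season values, which do not, stand beside some of these statements but not all. Leaving these 3 libraries out of the fit left the calls on day 10 at 6961 genes higher in CHT025 and 4976 higher in WFB.

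On day 10 of the early season the parents differed in the larger part of the expressed transcriptome, mostly by small amounts. Of 18585 genes tested with limma, 11951 (64.3%) were called at an adjusted p under 0.05, 6969 (37.5%) higher in CHT025 and 4982 (26.8%) higher in WFB. The median size of the difference was 0.31 on the log2 scale, and 2141 genes (11.5%) were called and at least 2-fold apart, 1171 (6.3%) higher in CHT025 and 970 (5.22%) higher in WFB. All 3 CHT025 libraries lay above all 3 WFB libraries for 7287 genes (39.2%), and the reverse held for 5283 (28.4%). The balance between the directions depends partly on scaling, since the median difference of all genes was 0.06 as deposited, 0.002 after quantile normalization and 0.11 after rescaling every library to the same sum. The 2-fold counts were 1086 and 1071 after quantile normalization and 1662 and 1103 after rescaling. In bulk leaf RNA, fewer cells of a type and less RNA per cell cannot be told apart, for any gene below. Parent and deposited table cannot be told apart either, because each parent has a table of its own.

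**Figure D1:**
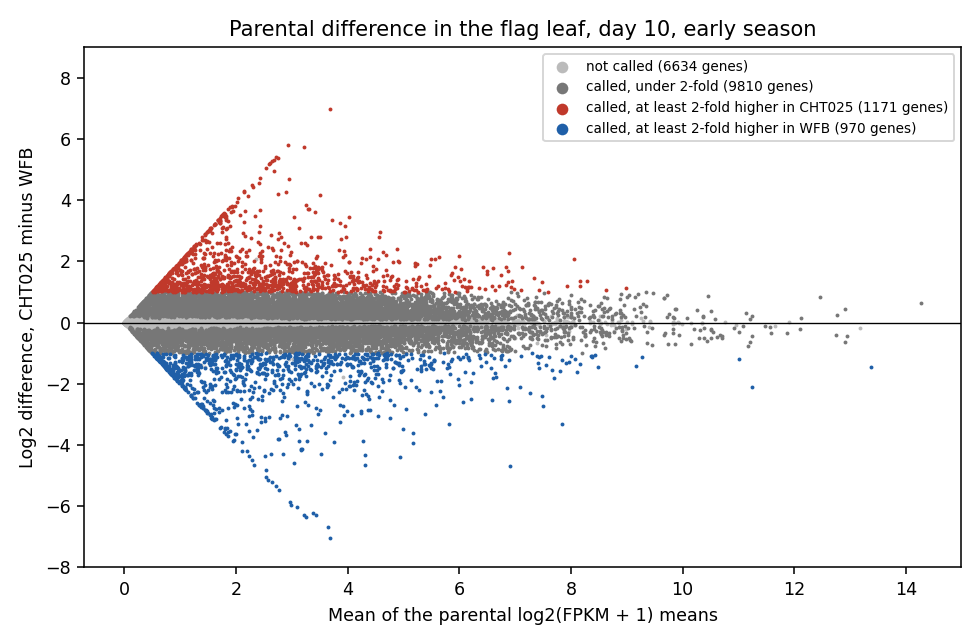
Log2 difference, CHT025 minus WFB, of the 18585 tested genes (vertical axis) against the mean of the parental means of log2(FPKM + 1) (horizontal axis), each point a gene. The 1171 genes at least 2-fold higher in CHT025 and the 970 higher in WFB are coloured, and differences beyond 2-fold thin out at the most abundant transcripts.

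The largest differences among genes expressed in both parents, with at least 1 FPKM in each and 10 in the higher, were above 4 on the log2 scale for 8 genes in the WFB direction. Several of these encode regulators of stress responses. Genes named for the size of their difference, here and in the lists below, have separated libraries largely through that choice. LOC_Os07g34570, annotated as an FAD-dependent oxidoreductase, had 594, 641 and 586 FPKM in the WFB libraries and 23.6, 23.4 and 20.7 in those of CHT025 (log2 -4.69 ± 0.13, limma adjusted p = 3.46e-23). All WFB libraries were at least 20-fold above any CHT025 library. LOC_Os09g35010, which encodes a protein that binds the dehydration-responsive element of cold- and drought-inducible promoters (DREB), had 82.9, 125 and 88.5 FPKM in WFB and 2.7, 3.05 and 3.08 in CHT025 (log2 -4.64 ± 0.19, limma adjusted p = 2.26e-19). The nearby LOC_Os09g35030, another DREB gene, had 47.9, 52.8 and 49.9 FPKM in WFB against 1.52, 1.75 and 1.55 in CHT025 (log2 -4.30 ± 0.15, limma adjusted p = 8.73e-21). Both DREB genes were low in every CHT025 library, and neither showed any overlap between the parents.

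A gene for a VQ-domain protein, LOC_Os02g15280, had 77.4, 90.2 and 91.6 FPKM in WFB and 2.75, 4.82 and 2.87 in CHT025 (log2 -4.31 ± 0.17, limma adjusted p = 1.31e-19). VQ proteins are small cofactors that bind WRKY transcription factors. The transferase gene LOC_Os06g48560 had 139, 133 and 146 FPKM against 5.63, 5.75 and 5.74 (log2 -4.39 ± 0.09, limma adjusted p = 3.02e-26), and the B-box zinc finger gene LOC_Os01g10580 34.6, 38.1 and 37.7 against 1.05, 1.17 and 1.16 (log2 -4.15 ± 0.11, limma adjusted p = 1.15e-23). For the cytochrome P450 gene LOC_Os02g47470 the values were 37.2, 39.1 and 34.2 FPKM in WFB and 1.44, 0.82 and 1.26 in CHT025, and for LOC_Os12g18729, a gene with no annotated function, 39.4, 34.2 and 36.4 and 1.15, 1.07 and 1.25. In each of these 5 genes the lowest WFB library stood above the highest CHT025 library by more than 10-fold.

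In the CHT025 direction the leading gene was LOC_Os01g02570, which encodes a protein kinase, with 44.8, 49.2 and 48.2 FPKM in CHT025 and 1.91, 1.43 and 1.74 in WFB (log2 4.17 ± 0.06, limma adjusted p = 7.24e-30). The cytochrome P450 gene LOC_Os06g43350 had 37.1, 34.8 and 34 FPKM in CHT025 and 1.85, 1.89 and 1.48 in WFB (log2 3.73 ± 0.10, limma adjusted p = 2.22e-23), and a second kinase gene, LOC_Os05g41950, had 28, 27.1 and 23.6 and 1.52, 1.45 and 1.5 (log2 3.45 ± 0.09, limma adjusted p = 1.39e-24). All 3 were near the lower limit of 1 FPKM in WFB and uniformly high in CHT025. LOC_Os10g42780, which encodes a member of the lrgB-like membrane protein family, had 51.7, 51.3 and 54.9 FPKM in CHT025 and 4.57, 3.56 and 3.54 in WFB (log2 3.46 ± 0.08, limma adjusted p = 4.61e-26). The other 4 of the 8 genes, LOC_Os06g50490, LOC_Os07g04450, LOC_Os11g29500 and LOC_Os02g15860, have no annotated function, and their log2 differences were 3.84 ± 0.25, 3.72 ± 0.08, 3.61 ± 0.11 and 3.35 ± 0.15. None of the 8 overlapped between the parents, which their choice by size of difference made likely beforehand.

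**Figure D2:**
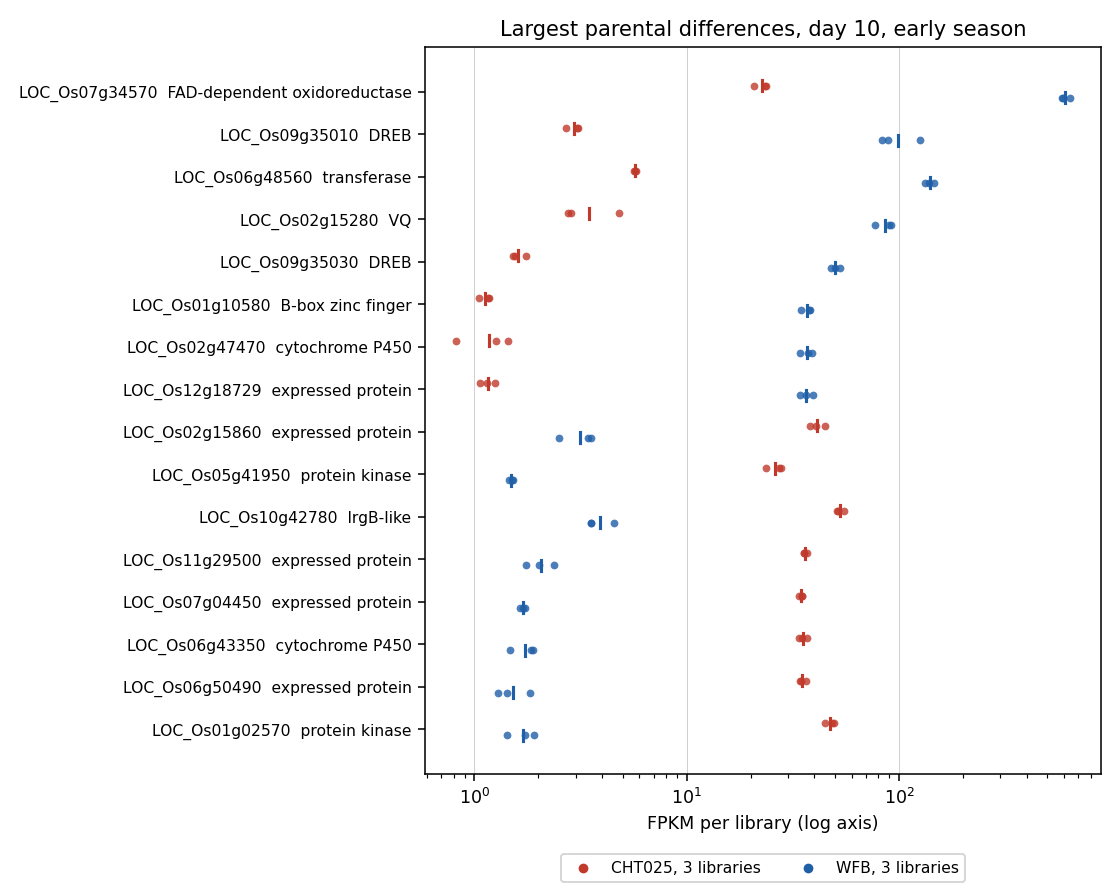
FPKM of each library (points, log axis) and group mean (short vertical lines) for the 8 genes with the largest difference in each direction among genes expressed in both parents. WFB is between 34.18 and 641 FPKM for the upper 8 genes and CHT025 between 23.6 and 54.9 FPKM for the lower 8. No gene overlaps between the parents, which the choice by size of difference made likely beforehand.

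Some differences were larger still but came from genes nearly silent in one parent; the genes in this paragraph were chosen after their values were seen, apart from LOC_Os07g43570. LOC_Os06g23870, annotated as an acyl-CoA dehydrogenase domain protein, had 143, 145 and 145 FPKM in CHT025 and 0.17, 0.19 and 0.08 in WFB (log2 6.99 ± 0.05, limma adjusted p = 1.2e-38). It was equally low in WFB on day 10 of the middle season, at 0.11 ± 0.03 FPKM (SD, n = 3), but stood at 150.00 ± 3.77 in the libraries labelled WFB, day 1, early. LOC_Os12g27370 had 54.8, 56.5 and 58.4 FPKM in CHT025 and 0.02, 0.03 and 0.01 in WFB, and its difference was between 5.46 and 6.08 in all 4 comparisons of the parents. In the other direction LOC_Os07g43570, which encodes a DUF26 receptor-like kinase, had 143, 149 and 148 FPKM in WFB and 0.15, 0.12 and 0.06 in CHT025 (log2 -7.06 ± 0.05, limma adjusted p = 2.39e-37).

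Among abundant transcripts, a few differed more than 2-fold; they too were chosen after their values were seen. The metallothionein-like gene LOC_Os05g11320, whose product binds metal ions, had 17346, 17959.5 and 17261 FPKM in WFB and 6345, 6402 and 6649 in CHT025 (log2 -1.44 ± 0.05, limma adjusted p = 1.78e-21). The gene for CP12, a small chloroplast protein that regulates Calvin cycle enzymes (LOC_Os01g19740), had 4870.3, 5005 and 5064 FPKM in WFB and 1202, 1170.3 and 1112 in CHT025 (log2 -2.10 ± 0.06, limma adjusted p = 7.31e-23). Both were higher in every WFB library. The cysteine protease gene of oryzain gamma (LOC_Os09g27030) had 943, 904 and 959 FPKM in WFB and 347, 352 and 348 in CHT025, and the aquaporin gene LOC_Os01g74450 604, 578 and 599.7 and 229, 209.6 and 211. LOC_Os04g21350, a flowering promoting factor-like gene, had 438, 493 and 467 FPKM in WFB and 70.5, 69.7 and 67.2 in CHT025 (log2 -2.73 ± 0.08, limma adjusted p = 1.67e-22).

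CHT025 was the higher parent for 2 abundant genes of the same kind of choice. The lipid transfer protein gene LTPL8 (LOC_Os11g02400) had 584, 536 and 520.0 FPKM in CHT025 and 126, 132 and 128 in WFB (log2 2.08 ± 0.06, limma adjusted p = 1.85e-22). The early light-induced protein gene LOC_Os07g08160, whose product protects the chloroplast under high light, had 769.5, 761 and 729.6 FPKM in CHT025 and 337, 350.0 and 342 in WFB (log2 1.13 ± 0.10, limma adjusted p = 2.37e-11). The lowest CHT025 library was above the highest WFB library for both.

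Genes listed at 0 in all 3 libraries of one parent and at 1 FPKM or more in all 3 of the other numbered 118 on the WFB side and 75 on the CHT025 side. In the hybrid on the same day, 116 of the 118 and 73 of the 75 were above 0 in all 3 libraries. Of the 118, 28 were listed at 0 in all 12 WFB libraries and 64 in the 9 that leave out day 1 of the early season; of the 75, 39 were listed at 0 in all 12 CHT025 libraries. The median level in the expressing parent was 2.67 FPKM and 2.22 FPKM. A value of 0 in a table without counts is reported only as such, so no fold is given for these genes.

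Listed at 0 in WFB and highest in CHT025 was LOC_Os06g24920, annotated as SAR DNA-binding protein-like, with 37.1, 37.9 and 40.1 FPKM in CHT025 and 19.1, 16.7 and 16.6 in the hybrid. A glycosyltransferase gene of the UDP-glucose type, LOC_Os05g42060, had 39.5, 33.2 and 33.7 FPKM in CHT025. LOC_Os03g37864, LOC_Os12g28015 and LOC_Os11g42880, which have no annotated function, had CHT025 means of 35.9 ± 1.19, 32.5 ± 1.36 and 18.6 ± 0.29 FPKM (SD, n = 3). On the other side the cytochrome P450 gene LOC_Os08g39640 had 61.2, 62.3 and 60.3 FPKM in WFB and was listed at 0 in CHT025, with 27.2, 30.2 and 31.7 in the hybrid. LOC_Os06g04399, annotated as encoding a hypersensitive-induced reaction protein, of a family tied to local cell death in defence, had 34.5, 32.5 and 35.2 FPKM in WFB. LOC_Os06g42650, LOC_Os09g15639 and LOC_Os03g26360 had WFB means of 23.9 ± 0.531, 11.6 ± 1.7 and 11 ± 0.875 FPKM. For each of these 10 genes the hybrid mean lay between the parents.

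Immune receptors differed between the parents in both directions, with more genes higher in CHT025, as among all tested genes. Of 162 tested genes of the NBS-LRR class, intracellular receptors that recognise pathogen effectors, 73 were called higher in CHT025 and 40 higher in WFB, and 23 and 17 of these were at least 2-fold apart. The median difference was 0.15, against 0.06 for all genes, and the share called was 69.8% against 64.3%. At 2-fold the shares over all tested genes were 6.3% for CHT025 and 5.22% for WFB. The largest difference belonged to LOC_Os06g17970, with 61.4, 55.2 and 60.1 FPKM in WFB and 0, 0 and 0.05 in CHT025 (log2 -5.88 ± 0.06, limma adjusted p = 7.26e-35). LOC_Os04g53000 was listed at 0 in WFB and had 11.2, 13.3 and 12.1 FPKM in CHT025. LOC_Os08g07774, an RPM1-type receptor gene, had 8.97, 9.19 and 9.17 FPKM in CHT025 and 0.07, 0.02 and 0.07 in WFB, and the NB-ARC gene LOC_Os11g44990 had 15.8, 19.1 and 19.2 and 1.41, 1.34 and 1.65 (log2 2.94 ± 0.08, limma adjusted p = 3.06e-23). Each of these 4 receptors was expressed at 8.9 FPKM or more in all libraries of one parent and at under 2 FPKM in the other.

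Receptor-like kinases of the cell surface, the wall-associated (WAK) and DUF26 families, were called in similar numbers each way. Of 92 genes 35 were higher in CHT025 and 33 in WFB, against 37.5% and 26.8% of all tested genes, with a median of -0.01. At least 2-fold higher were 12 in CHT025 and 17 in WFB, against 6.3% and 5.22% of all tested genes. Beside the DUF26 gene LOC_Os07g43570 above, the WAK gene OsWAK123 (LOC_Os11g47140) had 26.3, 26.9 and 27.4 FPKM in CHT025 and 0, 0.08 and 0.04 in WFB (log2 4.74 ± 0.05, limma adjusted p = 9.04e-35). OsWAK14 (LOC_Os02g42150) had 13, 12.7 and 13.7 FPKM in CHT025 and 0.02, 0.02 and 0.03 in WFB, and OsWAK61 (LOC_Os06g05050) 43.1, 42.5 and 45.3 and 3.8, 4.48 and 2.95. The 3 WAK genes were expressed in the libraries labelled WFB, day 1, early, at 23.3 ± 0.64, 11.2 ± 1.1 and 50.4 ± 1.62 FPKM. In the middle season on day 10 WFB had 0.0933 ± 0.0115, 0.0333 ± 0.0416 and 12.1 ± 0.37 FPKM.

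Enzyme families of specialised metabolism differed in both directions, with more members higher in CHT025, as among all tested genes, of which 37.5% were higher in CHT025 and 26.8% in WFB. Cytochrome P450 genes, which oxidise hormones and defence compounds, were called higher in CHT025 for 72 and higher in WFB for 41 of 155, with a median of 0.16. On day 10 of the middle season the counts were 48 and 60, where 33.9% and 23.4% of all tested genes were called. In the early season LOC_Os01g36294 had 31.3, 29.8 and 34.1 FPKM in CHT025 and 0.76, 0.73 and 0.61 in WFB (log2 4.26 ± 0.08, limma adjusted p = 4.27e-28). Glutathione S-transferases, which conjugate toxic compounds to glutathione, were called higher in CHT025 for 19 and in WFB for 10 of 46. Examples were LOC_Os01g27360, with 45.8, 46.3 and 44.3 FPKM in CHT025 and 4.99, 3.97 and 3.68 in WFB, and LOC_Os07g28480, with 15.1, 15.5 and 13.6 and 66.7, 67 and 67.2. They differed in opposite directions, by log2 3.16 ± 0.08 and -2.11 ± 0.07.

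Terpene synthase and diterpene phytoalexin genes were higher in CHT025 for 8 and in WFB for 4 of 18. On day 10 of the middle season the counts were 2 and 10, where 33.9% and 23.4% of all tested genes were called. For this list and the others of this paragraph, the shares over all tested genes in the early season were 37.5% and 26.8%. The terpene synthase gene LOC_Os04g52210 had 11.7, 12.5 and 12 FPKM in WFB and 0, 0.02 and 0 in CHT025 (log2 -3.70 ± 0.06, limma adjusted p = 4.89e-30). LOC_Os02g36210, annotated as ent-kaurene synthase, had 16.1, 16.1 and 16.5 FPKM in CHT025 and 3.23, 3.15 and 3.43 in WFB (log2 2.01 ± 0.09, limma adjusted p = 1.05e-18), and LOC_Os05g24500 had 7.26, 6.85 and 7.28 and 0.24, 0.39 and 0.35. Class III peroxidases were called higher in CHT025 for 11 and in WFB for 6 of 26, and LOC_Os08g41090 had 39.6, 40.4 and 42.7 FPKM in WFB and 7.12, 8.88 and 8.25 in CHT025. F-box proteins, the substrate adaptors of ubiquitin ligases, were nearly even at 87 and 78 of 299, a balance that turned to 71 and 97 after quantile normalization. OsFBX453 (LOC_Os12g34290) had 40.6, 39 and 39.6 FPKM in CHT025 and 0.04, 0 and 0 in WFB, and its hybrid mean was 4.79 ± 0.71. Transposon-related genes numbered 60 higher in CHT025 and 55 in WFB of 213, and 55 and 69 after quantile normalization.

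Among stress-related transcription factors, WRKY genes were called higher in WFB more often than in CHT025. NAC genes were not, with 19 of 52 higher in WFB and 22 in CHT025. Of 62 WRKY genes, regulators of defence and senescence, 28 were called higher in WFB and 15 higher in CHT025, against 26.8% and 37.5% of all tested genes, and 15 and 5 of them were at least 2-fold apart. At 2-fold the shares over all tested genes were 5.22% and 6.3%. WRKY24 (LOC_Os01g61080) had 48.6, 44.8 and 47.1 FPKM in WFB and 5.67, 4.38 and 4.75 in CHT025 (log2 -3.02 ± 0.13, limma adjusted p = 1.81e-18). WRKY76 (LOC_Os09g25060), a repressor of defence in rice, had 31.7, 31.3 and 34.6 FPKM in WFB and 1.17, 1.35 and 1.32 in CHT025 (log2 -3.88 ± 0.15, limma adjusted p = 1.43e-19). WRKY69 (LOC_Os08g29660) and WRKY74 (LOC_Os09g16510) differed by -2.89 ± 0.11 and -2.86 ± 0.07 on the log2 scale, CHT025 being lower. No WFB library of these 4 genes fell below 31.2 FPKM, and no CHT025 library rose above 7.32.

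The AP2-domain, VQ and ZIM families went the same way as the WRKY genes. The lists in this paragraph were added after values were seen and are given as a description. Over all tested genes 26.8% were called higher in WFB and 37.5% in CHT025, and 5.22% and 6.3% were so at 2-fold or more. Of 87 genes with an AP2 domain, the ethylene response factors and DREB proteins, 40 were higher in WFB and 22 in CHT025, 20 and 2 of them at least 2-fold. Without both libraries with seed storage transcripts the split was 40 and 16. Of 21 VQ-domain genes 14 were higher in WFB and 3 in CHT025, with a median of -0.77, and of 8 tested genes of ZIM-domain repressors, which hold jasmonate responses in check, 5 and 1, with a median of -1.13. The ZIM gene LOC_Os03g08330 had 34.3, 36.7 and 36.9 FPKM in WFB and 1.55, 1.63 and 1.38 in CHT025 (log2 -3.87 ± 0.16, limma adjusted p = 3.66e-19). The VQ gene LOC_Os02g15290, next to LOC_Os02g15280, had 15.6, 17.4 and 18 FPKM in WFB and 0.38, 0.45 and 0.25 in CHT025. The AP2-domain gene LOC_Os08g36920 had 23.7, 25.5 and 25.9 FPKM in WFB and 0.1, 0.48 and 0.22 in CHT025, and the DREB gene LOC_Os02g45450 24.9, 26.7 and 27.2 and 0.47, 0.24 and 0.49. Of 18 calmodulin-like calcium sensors 9 were higher in WFB and 8 in CHT025.

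In the early crop these families stood the other way round on day 1. Of the 62 WRKY genes 33 were called higher in CHT025 on day 1 and 8 higher in WFB, against 31.4% and 28% of all tested genes, and 18 (all genes, 7.5%) were higher in CHT025 on day 1 and in WFB on day 10 with the change itself called. On day 1, 44 of 87 AP2-domain genes, 14 of 21 VQ genes and 7 of 8 ZIM genes were higher in CHT025, and 18, 3 and 0 in WFB. The counts with a called change from CHT025 to WFB were 24 of 87 AP2-domain genes, 10 of 21 VQ genes and 5 of 8 ZIM genes. WRKY24 went from 92.3 ± 6.52 FPKM on day 1 to 4.93 ± 0.664 on day 10 in CHT025, and from 6.06 ± 0.637 in the libraries labelled WFB, day 1, to 46.8 ± 1.93 (change of the difference -6.74 ± 0.19, limma adjusted p = 3.71e-23). The ZIM gene LOC_Os03g08330 went from 59.4 ± 2.12 to 1.52 ± 0.128 FPKM in CHT025 and from 1.56 ± 0.679 in the libraries labelled WFB, day 1, to 36 ± 1.46 in WFB on day 10. In both genes CHT025 was lower on day 10 than on day 1, and the WFB libraries of day 10 were higher than those labelled WFB, day 1.

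Within CHT025, where no WFB library enters, limma called 26 of the 62 WRKY genes lower and 16 higher on day 10 than on day 1, against 39.9% and 25.1% of all tested genes, shares near those of the WRKY family. For the AP2-domain genes the counts were 48 lower and 15 higher of 87, for VQ genes 14 and 3 of 21, and for ZIM genes 6 and 0 of 8. From the libraries labelled WFB, day 1, to WFB on day 10, 10 of the 62 WRKY genes were lower and 29 higher, against 46.1% and 25% of all tested genes, and these counts rest on the libraries that stood apart. The counts were 25 lower and 35 higher for AP2-domain, 2 and 12 for VQ and 1 and 5 for ZIM genes. In the middle season each of these families had more genes higher in WFB on day 1, while on day 10 only the ZIM genes clearly did. On its day 10, 22 WRKY genes were higher in CHT025 and 24 higher in WFB, where 33.9% and 23.4% of all genes were, and the counts were 31 and 24 for AP2-domain, 8 and 7 for VQ and 0 and 5 for ZIM genes. On its day 1 the counts were 14 and 31 for WRKY genes, where 52.5% and 22.8% of all genes were called, 30 and 42 for AP2-domain, 3 and 13 for VQ and 0 and 6 for ZIM genes. WRKY24 was 3.52 ± 0.629 FPKM in CHT025 and 53.5 ± 10.1 in WFB on day 1 of the middle season, and 16.4 ± 2.01 and 10.8 ± 2.23 on day 10.

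**Figure D3:**
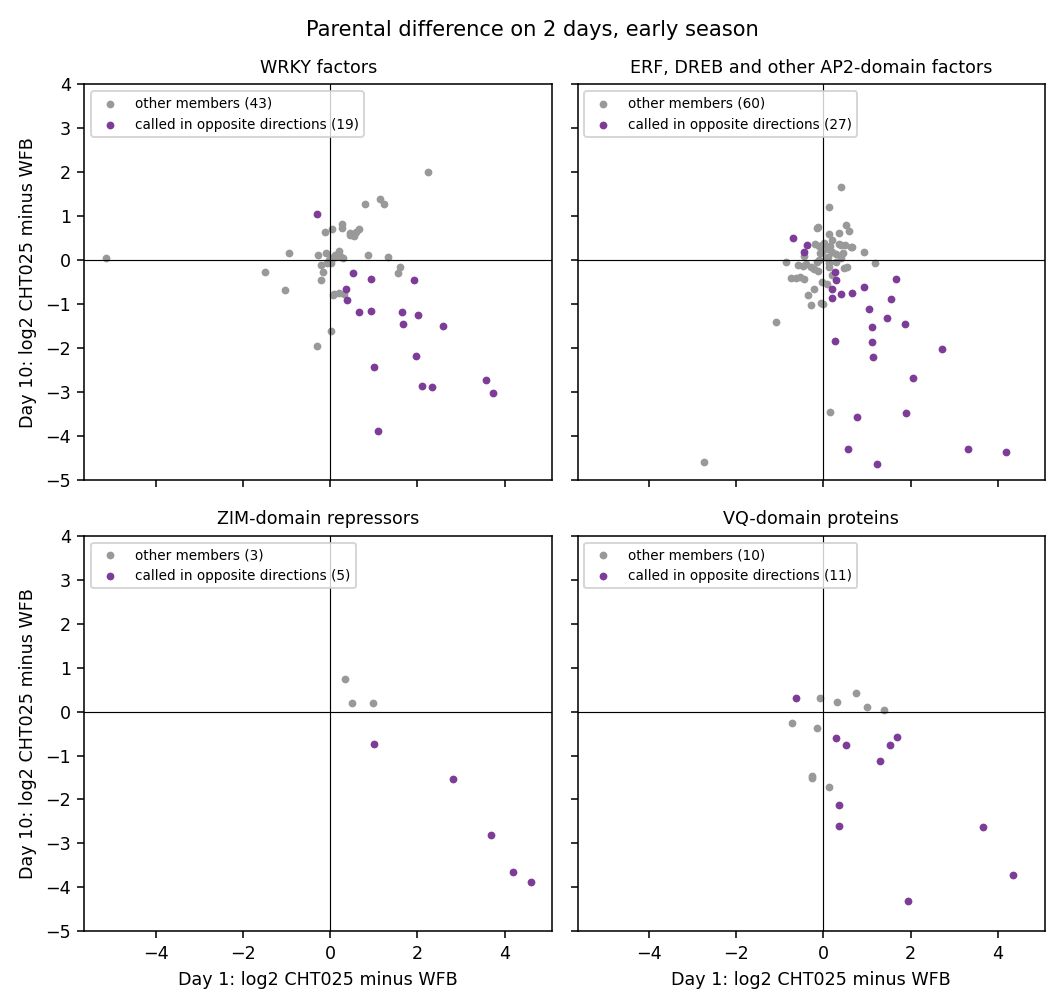
Log2 difference, CHT025 minus WFB, on day 10 (vertical axis) against day 1 (horizontal axis) of the early season for the tested members of 4 families, each point a gene. Genes called in opposite directions on the 2 days with the change called are coloured and lie mostly at the lower right, higher in CHT025 on day 1 and in WFB on day 10; the day 1 axis rests on the libraries labelled WFB, day 1, early, which stood apart.

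Genes further downstream in defence gave a mixed picture, and so did the NAC transcription factors. Of 43 pathogenesis-related and chitinase genes 13 were higher in CHT025 and 11 in WFB, against 37.5% and 26.8% of all tested genes. The share called was 55.8%, against 64.3% of all tested genes. CHIT1 (LOC_Os02g39330), a chitinase that cleaves fungal walls, had 48, 55.1 and 49.4 FPKM in WFB and 5.59, 6.58 and 5.7 in CHT025 (log2 -2.90 ± 0.16, limma adjusted p = 9.58e-16), and CHIT16 (LOC_Os03g04060) 20.8, 22 and 18.2 and 5.02, 5.31 and 5.89. The thaumatin gene LOC_Os12g43380 had 19.98, 33.5 and 14.5 FPKM in WFB and 0.02, 0 and 0 in CHT025, with more spread between the WFB libraries than in the genes above. The Bet v I type gene LOC_Os12g36880 went the other way, with 19.4, 19.8 and 20.8 FPKM in CHT025 and 5.5, 7.81 and 2.81 in WFB (log2 1.80 ± 0.21, limma adjusted p = 8.18e-09). Of 52 NAC factors 22 were higher in CHT025 and 19 in WFB, and the share called was 78.8%. LOC_Os01g64310 had 14.5, 14.7 and 15.2 FPKM in WFB and 0.89, 0.61 and 1.17 in CHT025, and LOC_Os08g02160 had 3.41, 3.4 and 2.87 in WFB and 30.1, 27.5 and 27.1 in CHT025.

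Transcripts of the photosynthetic light reactions were mostly higher in WFB, by modest amounts. Of 67 tested genes 39 were higher in WFB and 13 in CHT025, with a median difference of -0.29 and only 4 and 3 genes at least 2-fold apart. Of all tested genes 26.8% were called higher in WFB and 37.5% in CHT025. The photosystem II 10 kDa gene LOC_Os07g05360 had 2857, 3487 and 2975 FPKM in WFB and 1235, 1344 and 1536 in CHT025 (log2 -1.18 ± 0.12, limma adjusted p = 4.49e-10). Of 17 chlorophyll a/b binding proteins, the light-harvesting antenna, 13 were higher in WFB and 1 in CHT025, and 8 and 3 after quantile normalization. The antenna gene LOC_Os01g41710 had 9263, 10059.8 and 9226 FPKM in WFB and 6535, 6091 and 5870.2 in CHT025 (log2 -0.63 ± 0.06, limma adjusted p = 7.16e-10), and LOC_Os09g17740 7704, 8412 and 7584 and 6264, 5849 and 5711. The higher WFB level of light reaction genes was also seen on day 10 of the middle season, with 36 higher in WFB and 5 in CHT025. There 23.4% of all tested genes were called higher in WFB and 33.9% in CHT025.

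Carbon fixation genes were called less often. Of 16 tested, 5 were higher in CHT025 and 2 in WFB, with a median of 0.01 (5 and 1 after rescaling), so the share called was 43.8% against 64.3% of all genes. The gene for Rubisco activase (LOC_Os11g47970), which reactivates the enzyme that fixes CO2, was the most abundant transcript named here in CHT025 and had 25252, 24369.5 and 24155 FPKM in CHT025 and 16333, 15213 and 16190.0 in WFB (log2 0.63 ± 0.04, limma adjusted p = 8.73e-14). The Rubisco small subunit genes LOC_Os12g19381 and LOC_Os12g19470 had CHT025 means of 7603 ± 22.6 and 1156 ± 14.9 FPKM against 4206 ± 28.2 and 618 ± 10.8 in WFB. Copies of this subunit are close in sequence, so how reads were shared among them is uncertain. LOC_Os04g16680, annotated as a fructose-1,6-bisphosphatase gene, had 1444, 1404 and 1365 FPKM in CHT025 and 1064, 1044 and 1072 in WFB.

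Of 10 chlorophyll synthesis genes 6 were higher in CHT025 and 2 in WFB, but 1 and 9 on day 10 of the middle season. Over all tested genes the shares were 37.5% and 26.8% in the early season and 33.9% and 23.4% in the middle season. In the early season the differences of these 10 genes were small, such as 0.32 ± 0.05 for the magnesium chelatase subunit gene LOC_Os03g36540 and 0.27 ± 0.05 for LOC_Os03g59640. The exception was protochlorophyllide reductase LOC_Os04g58200, the light-dependent step of the pathway, with 90.1, 88.1 and 84.2 FPKM in WFB and 39.9, 31.8 and 29.8 in CHT025 (log2 -1.36 ± 0.11, limma adjusted p = 2.65e-12). Among the 7 genes of chlorophyll breakdown and leaf senescence, 2 were higher in CHT025 and 3 in WFB. Pheophorbide a oxygenase (LOC_Os03g05310), which opens the chlorophyll ring, was higher in CHT025, with 59.2, 56.6 and 59.5 FPKM against 41.6, 39.9 and 42.9 (log2 0.49 ± 0.04, limma adjusted p = 3.33e-12). NYC1 (LOC_Os01g12710) and NYC3 (LOC_Os06g24730), needed for chlorophyll breakdown in rice leaves, were higher in WFB, with differences of -0.42 ± 0.03 and -0.50 ± 0.06. The senescence regulator OsNAP (LOC_Os03g21060) had 15.1, 15.4 and 14.6 FPKM in WFB and 9.79, 10.1 and 8.81 in CHT025 (log2 -0.60 ± 0.08, limma adjusted p = 7.88e-08).

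Sucrose and starch genes were higher in CHT025 as a group, with 19 of 26 called in that direction, 2 in the other, and a median difference of 0.31. Over all tested genes 37.5% were called in that direction and 26.8% in the other. A sucrose transporter gene, LOC_Os03g07480, had 21.9, 22 and 22.6 FPKM in CHT025 and 3.31, 2.79 and 2.48 in WFB (log2 2.59 ± 0.09, limma adjusted p = 1.92e-21). The lowest CHT025 library was more than 6-fold above the highest WFB library. The genes LOC_Os01g44220 and LOC_Os05g50380, for subunits of glucose-1-phosphate adenylyltransferase, which makes the substrate of starch synthesis, had 22, 22.6 and 25.1 and 5.7, 6.45 and 6.48 FPKM in CHT025. In WFB they had 8.9, 8.75 and 9.99 and 1.2, 1.17 and 1.42. On day 10 of the middle season 15 of the 26 genes were higher in CHT025 and 1 in WFB, against 33.9% and 23.4% of all tested genes. The transporter had 23.2 ± 1.18 FPKM in CHT025 there, against 5.76 ± 0.543 in WFB.

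Nitrogen assimilation genes differed in both directions. Of 19 genes 13 were higher in CHT025 and 4 in WFB, against 37.5% and 26.8% of all tested genes. The glutamine synthetase genes LOC_Os02g50240 and LOC_Os03g12290, whose enzyme makes the glutamine that leaves the leaf, were higher in CHT025. The first had 178, 185 and 176 FPKM in CHT025 and 51.8, 51.4 and 51.7 in WFB (log2 1.78 ± 0.05, limma adjusted p = 6.28e-24), and the second 29.8, 27.9 and 27 and 10.8, 10.3 and 10.6 (log2 1.34 ± 0.06, limma adjusted p = 5.36e-18). Higher in WFB were a nitrate and a nitrite reductase gene, for successive steps of nitrate reduction. Nitrate reductase LOC_Os08g36500 had 44.8, 44.7 and 44 FPKM in WFB and 20.6, 19.5 and 18.2 in CHT025 (log2 -1.16 ± 0.05, limma adjusted p = 1.2e-18), and nitrite reductase LOC_Os01g25484 66, 62.8 and 62.5 and 10.9, 9.11 and 10.8 (log2 -2.52 ± 0.07, limma adjusted p = 3.16e-23). On day 10 of the middle season the nitrite reductase means were 13.9 ± 1.1 FPKM in WFB and 13.4 ± 0.315 in CHT025, so the gap of the early crop was not seen there (change between seasons -2.48 ± 0.10, limma adjusted p = 3.02e-18).

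**Figure D4:**
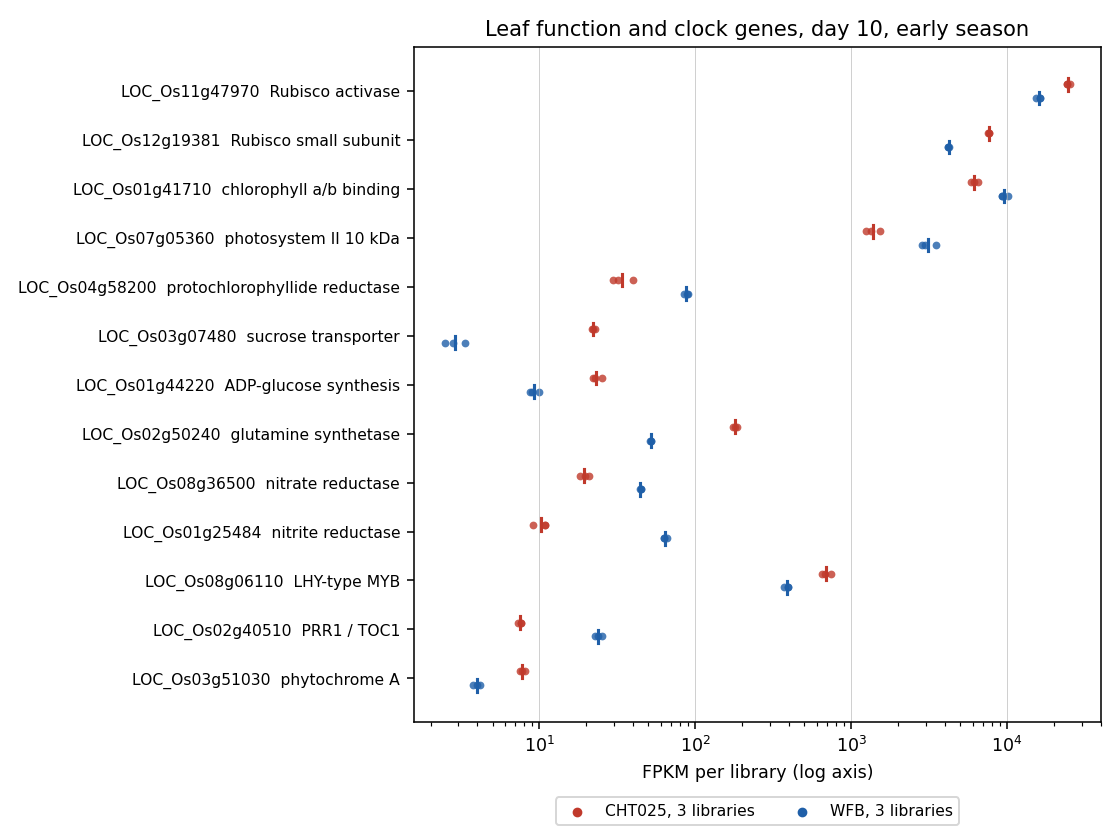
FPKM of each library (points, log axis) and group mean (short vertical lines) for genes of photosynthesis, sugar and nitrogen metabolism, the clock and light perception. The antenna, photosystem II, nitrate and nitrite reductase genes are higher in WFB, and Rubisco activase, the sucrose transporter, glutamine synthetase and LHY are higher in CHT025.

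The circadian clock sets the daily phase of leaf gene expression, with the morning factor LHY repressing evening genes such as PRR1. Of 17 clock and flowering time genes 6 were higher in CHT025 and 8 in WFB, against 37.5% and 26.8% of all tested genes. LHY (LOC_Os08g06110) had 648, 679 and 738 FPKM in CHT025 and 394, 368 and 394 in WFB (log2 0.83 ± 0.04, limma adjusted p = 1.09e-16). PRR1 (LOC_Os02g40510) had 23.6, 22.7 and 25.4 FPKM in WFB and 7.64, 7.24 and 7.62 in CHT025 (log2 -1.55 ± 0.05, limma adjusted p = 7.12e-22), so the morning factor was higher in CHT025 and this evening gene higher in WFB. The other pseudo-response regulators were also higher in WFB, with differences of -1.11 ± 0.04 for PRR95 (LOC_Os09g36220) and -1.04 ± 0.06 for PRR59 (LOC_Os11g05930). PRR73 (LOC_Os03g17570) and PRR37 (LOC_Os07g49460) followed with -0.33 ± 0.07 and -0.10 ± 0.04, the last of which did not pass the test after quantile normalization (limma adjusted p = 0.175).

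GIGANTEA (LOC_Os01g08700), which links the clock to flowering, had 362, 255 and 289.6 FPKM in WFB and 191, 205 and 207 in CHT025 (log2 -0.57 ± 0.11, limma adjusted p = 3.95e-05). The F-box gene FKF1 (LOC_Os11g34460), a blue light receptor of the clock, had 2.8, 2.98 and 3.17 FPKM in WFB and 0.26, 0.27 and 0.26 in CHT025 (log2 -1.66 ± 0.07, limma adjusted p = 7.23e-19). The ELF3 genes LOC_Os06g05060 and LOC_Os01g38530 differed by 0.24 ± 0.05 and 0.21 ± 0.09 in the CHT025 direction, the latter at under 1 FPKM in all 6 libraries and not past the test after quantile normalization (limma adjusted p = 0.305). The ZEITLUPE-type F-box gene LOC_Os06g47890 differed by 0.24 ± 0.06. The related LOC_Os02g05700 (-0.07 ± 0.05, limma adjusted p = 0.199), the LUX-type gene LOC_Os01g74020 (-0.09 ± 0.13, limma adjusted p = 0.561) and DTH8 (LOC_Os08g07740; -0.06 ± 0.08, limma adjusted p = 0.531) did not pass the test. The labels give no hour of harvest, so genotype and hour of harvest cannot be told apart for clock genes or for genes that follow the clock.

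The florigen gene Hd3a (LOC_Os06g06320), whose protein moves from the leaf to the shoot tip to trigger flowering, had 32.5, 32.8 and 33.9 FPKM in CHT025 and 24.2, 21.7 and 21.1 in WFB (log2 0.55 ± 0.08, limma adjusted p = 1.36e-06). All 3 CHT025 libraries were above all 3 of WFB. The difference was -0.51 ± 0.08 on day 10 of the middle season, in the other direction. Ehd1 (LOC_Os10g32600), an activator of flowering, was higher in WFB at a low level, with 1.36, 2.37 and 2.5 FPKM against 0.8, 0.95 and 1.07 (log2 -0.65 ± 0.14, limma adjusted p = 0.000168). Among the photoreceptors, phytochrome A (LOC_Os03g51030) had 7.55, 7.73 and 8.05 FPKM in CHT025 and 3.99, 3.72 and 4.13 in WFB (log2 0.83 ± 0.05, limma adjusted p = 9.16e-15). Phytochrome C (LOC_Os03g54084) had 11.9, 11.3 and 11.5 FPKM in CHT025 and 17.3, 15 and 16.6 in WFB (log2 -0.46 ± 0.06, limma adjusted p = 6.84e-08), and phytochrome B (LOC_Os03g19590) did not pass the test, with -0.06 ± 0.06 (limma adjusted p = 0.394).

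Of the plant form and yield genes, 7 were in the tables and 5 were tested, with 3 called, all slightly higher in WFB. Over all tested genes 26.8% were called higher in WFB and 37.5% in CHT025. NAL1 (LOC_Os04g52479), which shapes leaf width, had 23.5, 20.2 and 21.8 FPKM in WFB and 18.2, 19.4 and 18.5 in CHT025 (log2 -0.21 ± 0.06, limma adjusted p = 0.00171). GW2 (LOC_Os02g14720), a ubiquitin ligase gene that limits grain width, differed by -0.32 ± 0.08 and TAC1 (LOC_Os09g35980), which sets tiller angle, by -0.30 ± 0.09. The semidwarf gene SD1 (LOC_Os01g66100), a gibberellin oxidase, had 22.2, 22.4 and 21.7 FPKM in WFB and 23.4, 21.4 and 20.5 in CHT025 and did not pass the test (limma adjusted p = 0.748). Waxy (LOC_Os06g04200), the granule-bound starch synthase of the grain, had 0.53, 1.07 and 3.36 FPKM in WFB and 2.57, 0.46 and 0.54 in CHT025. Its highest values were in the same WFB and CHT025 library that held the seed storage transcripts.

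Ribosomal protein genes were called higher in CHT025 more often than in WFB, with 159 of 342 called in that direction, 55 in the other, and a median of 0.17. Over all tested genes the shares were 37.5% and 26.8%, with a median of 0.06. Within them the list of cytosolic ribosomal proteins, added after values were seen, had 73 of 116 higher in CHT025 and 7 in WFB, with a median of 0.29. The direction was reversed on day 10 of the middle season, with 5 of the 116 higher in CHT025 and 89 in WFB and a median of -0.36. There 33.9% and 23.4% of all tested genes were called. Organellar ribosomal proteins were 30 and 12 of 75, and 25 and 16 after quantile normalization, which brought their median from 0.04 to -0.01. The S17 gene LOC_Os04g52361 had 27.3, 29.5 and 27.5 FPKM in CHT025 and 0.58, 0.59 and 0.52 in WFB. The plastid 50S gene LOC_Os11g34940 had 41.6, 42.2 and 37.7 in CHT025 and 5.06, 4.16 and 5.59 in WFB, and the L18a gene LOC_Os06g25294 8.62, 9.56 and 8.73 and 0.08, 0 and 0.41. These 3 single genes were each more than 6-fold apart between the nearest libraries, far beyond the shift of their families.

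Pentatricopeptide repeat proteins, which process organelle RNA, showed small differences whose balance depended on scaling, with 88 higher in CHT025 and 52 in WFB of 283 as deposited and 60 and 85 after quantile normalization. As deposited, 37.5% of all tested genes were called higher in CHT025 and 26.8% in WFB. The share of the 283 called was 49.5%, against 64.3% of all tested genes. LOC_Os10g34310 had 46.9, 45.2 and 47.1 FPKM in WFB and 15.9, 15.9 and 15.5 in CHT025 (log2 -1.50 ± 0.05, limma adjusted p = 1.61e-21), and LOC_Os04g44030 3.39, 3 and 3.55 and 12.7, 13.5 and 12.1 (log2 1.67 ± 0.07, limma adjusted p = 2.81e-19). Only 5 members in each direction reached 2-fold, where 6.3% of all tested genes did so for CHT025 and 5.22% for WFB.

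Heat shock proteins and chaperones were higher in CHT025 for 55 and in WFB for 28 of 116, and 18 and 4 of them were at least 2-fold apart. Of all tested genes 37.5% and 26.8% were called in these directions, 6.3% and 5.22% at 2-fold. The small heat shock gene LOC_Os06g14240 had 53.5, 55.1 and 54.1 FPKM in CHT025 and 8.35, 11.8 and 10.3 in WFB (log2 2.32 ± 0.09, limma adjusted p = 1.89e-19). The 22 kDa gene LOC_Os02g52150 had 57.8, 56 and 51.4 in CHT025 and 12.4, 13.9 and 12.8 in WFB, and the DnaK gene LOC_Os01g62290, an HSP70-type chaperone, 102, 94.8 and 92 and 22, 20.9 and 22.6. Against them stood the DnaJ cochaperone gene LOC_Os01g42190, with 5.55, 6.51 and 6.7 FPKM in WFB and 0.13, 0.1 and 0.26 in CHT025. The 17 small heat shock genes, listed after values were seen, had a median of 0.66, which fell to 0.32 without both libraries with seed storage transcripts, and 8 were then higher in CHT025 and 1 in WFB in place of 9 and 2.

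Transcripts of ferritin, the iron storage protein, differed strongly. The ferritin genes LOC_Os12g01530 and LOC_Os11g01530, a list added after values were seen, had 732, 714 and 721 and 319.6, 221 and 319 FPKM in WFB. In CHT025 they had 76.2, 68 and 69.3 and 42.9, 58.4 and 42.7. The differences were -3.33 ± 0.05 (limma adjusted p = 2.24e-30) and -2.55 ± 0.14 (limma adjusted p = 4.1e-16), and no library overlapped. The 2 genes are near-identical copies, so the share of each is uncertain, but both gave the same direction. On day 10 of the middle season CHT025 was the higher parent, with 1812 ± 84.6 FPKM against 863 ± 23.7 for LOC_Os12g01530 (change between seasons -4.40 ± 0.07, limma adjusted p = 2.84e-28). Of 19 antioxidant enzyme genes 7 were higher in each parent, with no 2-fold difference, and after rescaling each library 8 were higher in CHT025 and 5 in WFB. Before rescaling, 37.5% of all tested genes were called higher in CHT025 and 26.8% in WFB. Catalase B (LOC_Os06g51150) had 10.9, 12 and 11.8 FPKM in CHT025 and 5.58, 5.37 and 5.26 in WFB, and a copper/zinc superoxide dismutase gene (LOC_Os03g22810) 102, 105 and 103 and 60.0, 64.5 and 54.6.

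**Figure D5:**
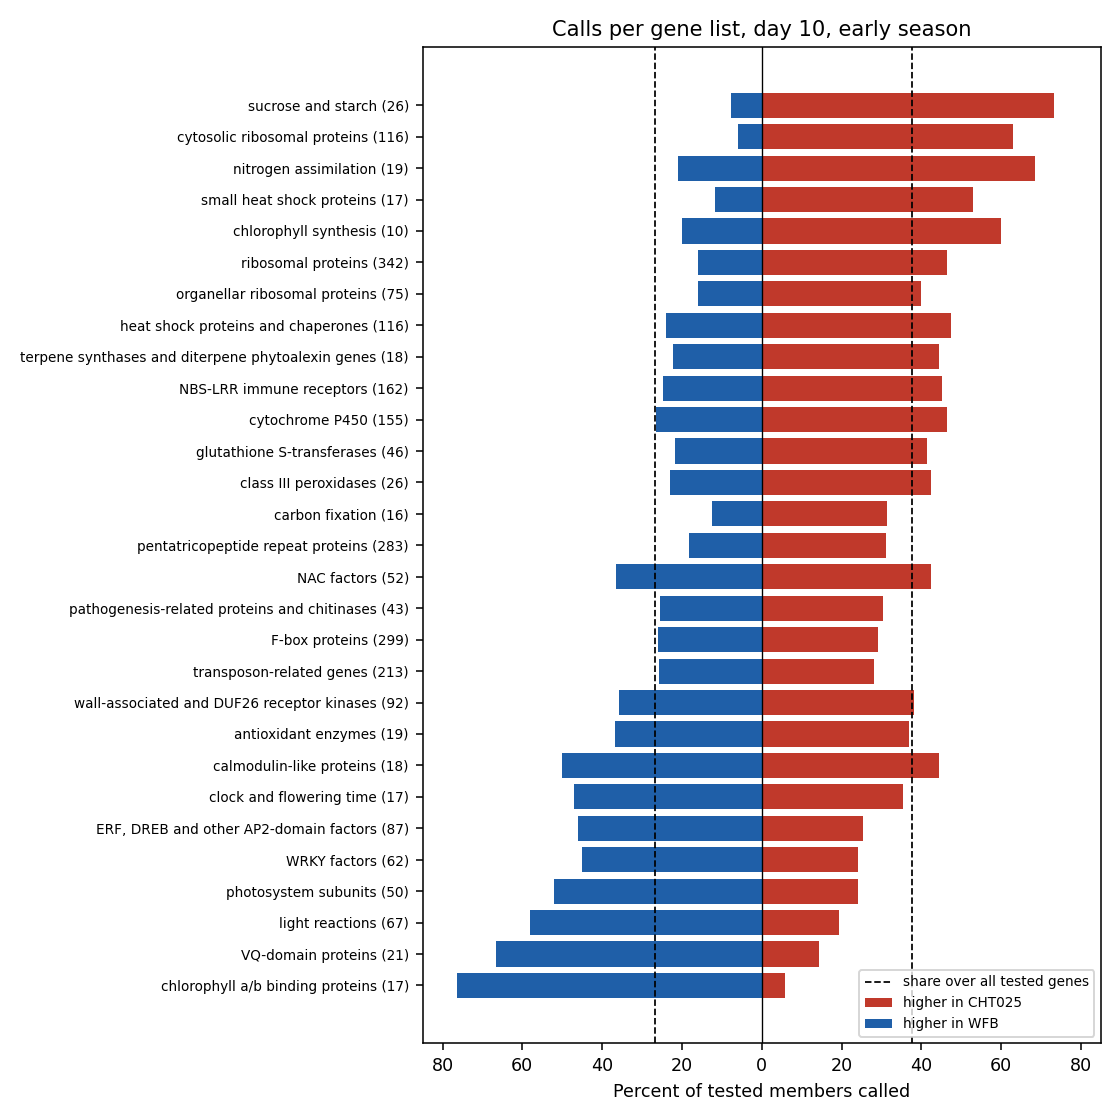
Percent of the tested members of each gene list called higher in CHT025 (right) or in WFB (left), with the number tested in parentheses; lists with under 10 tested genes are left out. Dashed lines give the shares over all tested genes, 37.5% and 26.8%; the antenna, VQ and light reaction lists reach furthest beyond the WFB line and the sucrose and starch, nitrogen and cytosolic ribosomal lists beyond the CHT025 line.

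The parental difference was only partly a constant of the lines. Of the 2141 genes at least 2-fold apart, 1592 (74.4%) were called in the same direction on day 10 of the middle season and 1736 (81.1%) on day 1 of that season. Both held for 1404 (65.6%), 783 higher in CHT025 and 621 higher in WFB. On day 1 of the early season, which rests on the WFB libraries that stood apart, the number was 1372 (64.1%). The parental difference changed between the seasons for 9280 genes (49.9%), and for 1737 (9.35%) it was called in opposite directions. Between the days of the early season it changed for 10989 genes (59.1%), with opposite directions for 2767 (14.9%).

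The widest turns between the seasons were in the 2 ferritins, the DREB gene LOC_Os02g45450, the cytochrome P450 gene LOC_Os11g05380 and LOC_Os08g40910, a gene with no annotated function. LOC_Os08g40910 had 17.7, 15.5 and 14.1 FPKM in CHT025 and 1.17, 1.4 and 1.35 in WFB on day 10 of the early season and 14 ± 1.35 and 45 ± 6.78 FPKM on day 10 of the middle season. Between the days of the early season the widest turns were in LOC_Os12g37415, the basic helix-loop-helix gene LOC_Os04g23550, the AP2-domain gene LOC_Os08g36920, the ZIM gene LOC_Os03g08330 and the VQ gene LOC_Os02g15290. LOC_Os04g23550 had 17.1, 14.6 and 15.1 FPKM in WFB and 0.11, 0.12 and 0.1 in CHT025 on day 10, against 0.2 ± 0.0819 in the libraries labelled WFB, day 1, and 34 ± 5.38 in CHT025 on day 1. On day 10 of the early crop LOC_Os11g05380 had 13.7, 12.6 and 12.5 FPKM in WFB and 0.16, 0 and 0.18 in CHT025. Its day 10 means in the middle crop were 0.333 ± 0.129 FPKM for WFB and 1.83 ± 0.89 for CHT025, a turn between the seasons.

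LOC_Os12g37415, which has no annotated function, had 84.3, 98 and 87.2 FPKM in WFB and 0.19, 0.22 and 0.21 in CHT025, and on day 1 the order was exchanged, with 0.193 ± 0.0153 in the libraries labelled WFB and 92.4 ± 3.98 in CHT025. LOC_Os05g03865, chosen after its values were seen, had 124, 137 and 119 FPKM in WFB and 0.24, 0.22 and 0.25 in CHT025 on day 10 and a CHT025 mean of 34.7 ± 59.8 on day 1, where the SD exceeds the mean. Both genes were near 0 in some libraries and far above 10 FPKM in others, also between replicates of a group, so the standard errors of their differences were 1.06 and 1.15, against a median residual SD of 0.106 over all genes. Within the CHT025 group 11 genes and within the WFB group 18 genes went from at most 0.5 to at least 10 FPKM between replicates of day 10, of which 5 and 11 were seed storage genes.

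Genes at least 2-fold apart were spread over all 12 chromosomes, from 8.86% of the tested genes on chromosome 8 to 13.9% on chromosome 11. In windows of 50 consecutive tested loci, ordered by locus identifier, the median was 5 such genes, and 9 of 366 windows held 15 or more. The window from LOC_Os07g03870 to LOC_Os07g05470 on chromosome 7 held the most, 20 of 50, and 17 of the 20 were higher in CHT025. It includes LOC_Os07g04450, one of the 8 leading CHT025 genes.

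For genes at least 2-fold apart between the parents, the hybrid WFYT025 on the same day mostly lay between them. A wide parental gap leaves more room for a value inside it, and the share over all tested genes was not counted. For 1865 of the 2141 genes (87.1%) its mean was between the parental means, for 200 it was above both and for 76 below both. Of all 970 genes at least 2-fold higher in WFB, the hybrid was nearer to CHT025 on the log2 scale for 569 (58.7%). Among them it was so for 11 of 15 WRKY genes, 19 of 20 AP2-domain genes, 8 of 9 VQ genes and 1 of 4 ZIM genes. WRKY24 had 3.74, 5.23 and 5.1 FPKM in the hybrid, close to CHT025.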

How the data were processed

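Flag leaf RNA of WFB, CHT025 and WFYT025 was sequenced on day 1 and day 10 after flowering in an early and a middle rice crop, 36 libraries in 12 groups of 3. Per the labels' protocols, Trizol RNA was fragmented, reverse-transcribed and sequenced from paired ends. The authors deposited 1 table per line and season with FPKM values of 2 decimals, per the file headers. The submitters' processing notes name HISAT, StringTie and edgeR; their versions and roles, no genome build or annotation is given there. No counts were at hand, so depth is unknown and no counting error can be given.

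Tables were joined on the gene identifier over the 34623 genes common to all. From the table of the early WFYT025 crop, 1 broken line and 7534 repeated lines were dropped. A gene was tested where 3 or more of all libraries reached 1 FPKM, which left 18585 genes. Values were used as log2(FPKM + 1), which understates changes of low genes. limma 3.58.1 (R 4.3.3) fitted 12 group means over all libraries with an intensity trend, which left 24 residual degrees of freedom. Tests were two-sided with Benjamini-Hochberg adjustment over all tested genes and were tested on simulated data. Calls are at an adjusted p under 0.05, and 2-fold means 1 or more on the log2 scale. The change of the parental difference between days or seasons was tested as an interaction.

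Named genes were the 8 largest differences each way with at least 1 FPKM in both parents and 10 in the higher, and the 5 highest genes each way listed at 0 in the other parent. Added to them were up to 4 called members of each list with at least 5 FPKM, the clock, phytochrome and yield genes tested except 1 that is not reported here, and the 5 widest turns between days and between seasons. Other genes are said to be chosen after their values were seen. Members and lists were chosen with earlier results of these data known. Alternatives were other pseudocounts, filters and scalings, left-out libraries and a replicate block. Python 3.11.15, pandas 2.3.3 and matplotlib 3.10.9 were used.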

Additional observations from a re-analysis of the deposited data

Results flagged for a closer look

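The genes below were called in opposite directions in 2 comparisons of the same parents, with limma's interaction test of the change also called. Each value is the change of the CHT025 minus WFB difference on the log2 scale. All values for day 10 minus day 1 of the early season rest on the libraries labelled WFB, day 1, early, which stood apart from the other WFB libraries. The part of those libraries in the changes was not tested.

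Between the days, the change was -12.52 for LOC_Os12g37415, -8.76 for the basic helix-loop-helix gene LOC_Os04g23550, -8.55 for the AP2-domain gene LOC_Os08g36920 and -8.47 for the ZIM gene LOC_Os03g08330. The VQ genes LOC_Os02g15290 and LOC_Os02g15280 changed by -8.08 and -6.25, and the DREB genes LOC_Os02g45450, LOC_Os09g35010 and LOC_Os09g35030 by -7.59, -5.88 and -4.86. The cytochrome P450 genes LOC_Os11g05380 and LOC_Os02g47470 changed by -7.81 and -6.91. WRKY24 (LOC_Os01g61080), WRKY69 (LOC_Os08g29660), WRKY76 (LOC_Os09g25060) and WRKY74 (LOC_Os09g16510) changed by -6.74, -5.21, -4.98 and -4.96. The chitinase gene CHIT1 (LOC_Os02g39330) changed by -5.71 and the NAC gene LOC_Os01g64310 by -4.34. All of these were higher in CHT025 on day 1 and in WFB on day 10.

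The same direction held for the ferritin genes LOC_Os12g01530 and LOC_Os11g01530 with -3.44 and -3.04, nitrite reductase LOC_Os01g25484 with -2.95 and nitrate reductase LOC_Os08g36500 with -2.02. The metallothionein-like gene LOC_Os05g11320 changed by -2.73 and the aquaporin gene LOC_Os01g74450 by -2.68. Smaller changes were -1.62 for NAL1 (LOC_Os04g52479), -1.11 for NYC3 (LOC_Os06g24730), -1.06 for TAC1 (LOC_Os09g35980), -0.57 for GW2 (LOC_Os02g14720) and -0.36 for PRR37 (LOC_Os07g49460). The opposite direction was found for ent-kaurene synthase LOC_Os02g36210 with 2.49, the ELF3 gene LOC_Os01g38530 with 1.56 and catalase B (LOC_Os06g51150) with 1.45. The magnesium chelatase subunit genes LOC_Os03g59640 and LOC_Os03g36540 had 0.69 and 0.6.

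Between the seasons on day 10, early minus middle, the values do not use those libraries. The DREB gene LOC_Os02g45450 changed by -4.97, the ferritin genes LOC_Os11g01530 and LOC_Os12g01530 by -4.74 and -4.4, and the P450 gene LOC_Os11g05380 by -4.68. The VQ gene LOC_Os02g15290 changed by -4.15, WRKY24 by -3.59, WRKY74 by -3.2 and the oryzain gamma gene LOC_Os09g27030 by -2.46. PRR59 (LOC_Os11g05930) had -1.21, NYC3 (LOC_Os06g24730) -0.69, NAL1 (LOC_Os04g52479) -0.57 and PRR37 (LOC_Os07g49460) -0.23.

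Genes higher in CHT025 in the early and in WFB in the middle season were LOC_Os08g40910 with a change of 4.47, the Bet v I gene LOC_Os12g36880 with 3.97, ent-kaurene synthase LOC_Os02g36210 with 2.86 and the heat shock gene LOC_Os02g52150 with 2.37. The Rubisco small subunit genes LOC_Os12g19470 and LOC_Os12g19381 changed by 1.22 and 1.02, Hd3a (LOC_Os06g06320) by 1.06 and Rubisco activase (LOC_Os11g47970) by 0.91. The magnesium chelatase subunit genes LOC_Os03g36540 and LOC_Os03g59640 changed by 0.67 and 0.5.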

How the results depend on the processing

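Of 129 named genes under 16 alternatives, 123 kept their direction and their side of the threshold in every alternative that gave a value; of 2060 gene and alternative pairs, 16 lost a call and 4 changed sign. The numbers of genes called on day 10 in each direction, and of genes whose difference changed with day or season, stayed within 1.5 times under every alternative, from 5198 to 7709 for CHT025 and from 3992 to 5788 for WFB. The 2-fold counts depended on the pseudocount, by its construction, since a larger one shrinks the differences of low genes. They were 2199 for CHT025 and 1583 for WFB with a pseudocount of 0.1, and 375 and 436 with 5. Genes listed at 0 in WFB numbered 30 when at least 5 FPKM was asked of CHT025 and 211 when under 0.1 FPKM stood for 0; those listed at 0 in CHT025 numbered 11 and 143.

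Leaving out each day 10 library in turn gave 6491 to 6740 genes higher in CHT025 and 4594 to 4787 higher in WFB, 1183 to 1203 and 960 to 982 at 2-fold, and 10582 to 10675 and 8794 to 8989 genes with a dependence on day and on season. Without both libraries with seed storage transcripts, an alternative chosen after seeing the data, 6499 and 4308 genes were called. Without the 3 libraries labelled WFB, day 1, early, also chosen after seeing the data, the dependence on season was called for 9244 genes and the dependence on day could not be fitted.

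The sign changed for genes that did not pass the test. SD1 (LOC_Os01g66100) had 0.0261 after rescaling and -0.0720 to 0.0188 when a library was left out. Phytochrome B (LOC_Os03g19590) had 0.0126 without both libraries with seed storage transcripts, and Waxy (LOC_Os06g04200) -0.68 to 0.17 when a library was left out; the cause was not tested. The calls of the ELF3 gene LOC_Os01g38530 and of PRR37 (LOC_Os07g49460) were lost under 8 and 7 alternatives.

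Same-numbered libraries of the parents did not deviate together, with correlations of -0.251, 0.111 and -0.164. With the replicate block 6411 genes were higher in CHT025 and 4602 in WFB, against 6676 and 4817 without it in a fit of the 6 libraries alone. NAL1 (LOC_Os04g52479) had a limma adjusted p of 0.051 with the block. Depth is unknown, so what low values can show is limited by the 2 decimals of the tables.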
